A study of Mus musculus with 19 samples.

Results

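The drug-metabolizing cytochrome P450 families 1 to 3 were followed in mouse liver RNA. Members were all protein-coding genes whose symbol is Cyp1, Cyp2 or Cyp3 followed by a subfamily letter and a number. By this rule 61 of 35498 genes (21794 of them protein-coding) were members, in 17 subfamilies. A filter on low counts left 42 of the 61 members and 13594 genes in all for testing. The rule used names only and no measured value.

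Cytochromes P450 are haem enzymes of the endoplasmic reticulum that insert an oxygen atom into drugs, toxins, steroids, fatty acids and bile acids, with electrons supplied by the reductase Por. In liver most of these enzymes are made by hepatocytes, many of them mainly in the pericentral zone around the central vein. Their genes are known to respond to xenobiotic receptors (Ahr, the constitutive androstane receptor CAR, encoded by Nr1i3, and the pregnane X receptor PXR, encoded by Nr1i2), and several differ between male and female mice.

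The libraries came from livers of male mice whose genotype the labels give as C57Bl/J6, all marked 24 weeks, without saying whether this is an age or a time on diet. There were 4 libraries of mice given WSD+beta-Glucan. CTRL+beta-Glucan, WSD and CTRL had 5 libraries each. WSD is not spelled out in the labels, and the series title concerns oat beta-glucan in the diet and fatty liver disease. The labels do not name the mouse behind a library. If libraries shared animals, the p-values given here would reflect technical spread only.

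Each library held between 17253823 and 23450232 estimated reads. The members took 1.955% to 2.258% of them in WSD+beta-Glucan libraries, 1.88% to 2.359% in CTRL+beta-Glucan libraries, 1.554% to 2.178% in WSD libraries and 1.83% to 2.502% in CTRL libraries. Of 19 hepatocyte markers 13 were lower and 0 higher in WSD than in CTRL, and their summed CPM (counts scaled to a common library size) were 87200 to 105000 in WSD, against 146000 to 184000 in CTRL. Of 16 macrophage markers 14 were higher and 0 lower, with summed CPM of 811 to 1050 in WSD and 72.4 to 200 in CTRL, and of 10 stellate cell markers 8 were higher and 0 lower. In bulk RNA, fewer hepatocytes and less of an RNA per hepatocyte cannot be told apart. Along the second principal component CTRL+beta-Glucan replicates 1 and 2 lay at 51.8 and 18.2, the other 3 of that group between -15.9 and 0.9, and WSD+beta-Glucan replicate 1 lay at 18.2, the others of its group between -20.3 and -6.9. Results that rest on these 3 libraries are given without them as well.

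In TPM, an abundance that accounts for transcript length and so allows genes to be compared, a few enzymes made up most of the family. Cyp2e1, which oxidizes ethanol and other small molecules, had the highest level, with a mean of 5306 TPM over the 19 libraries and a range of 3725 to 8064 TPM. Cyp3a11, the main hepatic CYP3A enzyme of the mouse, followed with a mean of 2331 TPM, and Cyp2d9, a steroid 16-alpha-hydroxylase of male mouse liver, with a mean of 1223 TPM. By subfamily, CYP2E held 37.0% of the summed TPM of all members, CYP2D 20.4%, CYP3A 20.1%, CYP2C 10%, CYP2A 4.7%, CYP2F 4.64%, CYP2J 1.65% and CYP1A 1.32%. A mean above 100 TPM was found for 20 members and a mean above 1 TPM for 36.

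Of the 19 members that did not pass the filter, 6 had no read in any library (Cyp2b19, Cyp2b23, Cyp2j7, Cyp2j11, Cyp2j12 and Cyp2w1). The other 13 had between 1 and 150 reads over all 19 libraries. These were Cyp1a1, Cyp2ab1, Cyp2c65, Cyp2c66, Cyp2d11, Cyp2g1, Cyp2j8, Cyp2j13, Cyp2t4, Cyp3a16, Cyp3a41a, Cyp3a41b and Cyp3a57. Cyp1a1, the classical target of the aryl hydrocarbon receptor Ahr, had the 150 reads and stayed between 0.0496 and 1.01 CPM in every library.

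The first comparison asked what WSD without beta-glucan did to these enzymes. Most members were lower. Of 42 tested, 25 fell and 6 rose at an edgeR quasi-likelihood adjusted p under 0.05. Over all 13594 genes tested 27.1% were lower and 26.0% higher. The median log2 fold change of the members was -0.64, against -0.04 over all genes. A fall of at least 2-fold was called for 13 members and a rise of at least 2-fold for 6. The 6 that rose were Cyp1b1, Cyp2a4, Cyp2a22, Cyp2b9, Cyp2b13 and Cyp2d12, and none of them is among the abundant enzymes of this liver, the highest being Cyp2a22 with a mean of 10.4 TPM over the 19 libraries. The hepatocyte markers moved in the same direction as the members that fell and by a similar amount. Of 19 tested 13 were lower and 0 higher, with a median of -0.65. Their part in these falls was not tested.

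The scale on which libraries are compared set how many members were called. CPM here are scaled by the trimmed mean of M values (TMM). With library totals alone, a setting added after the data were seen, the median of all genes in WSD against CTRL moved to 0.43 on the log2 scale, and 14 members were lower and 10 higher, where 617 of 13594 genes were lower and 7874 higher. With upper-quartile scaling 21 were lower and 9 higher, where 2618 genes were lower and 4100 higher. Relative to the median of all genes, the members' median stood at -0.60 with TMM, -0.63 with library totals and -0.60 with upper-quartile scaling. Changes described here are therefore relative to the bulk of genes.

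**Figure D1:**
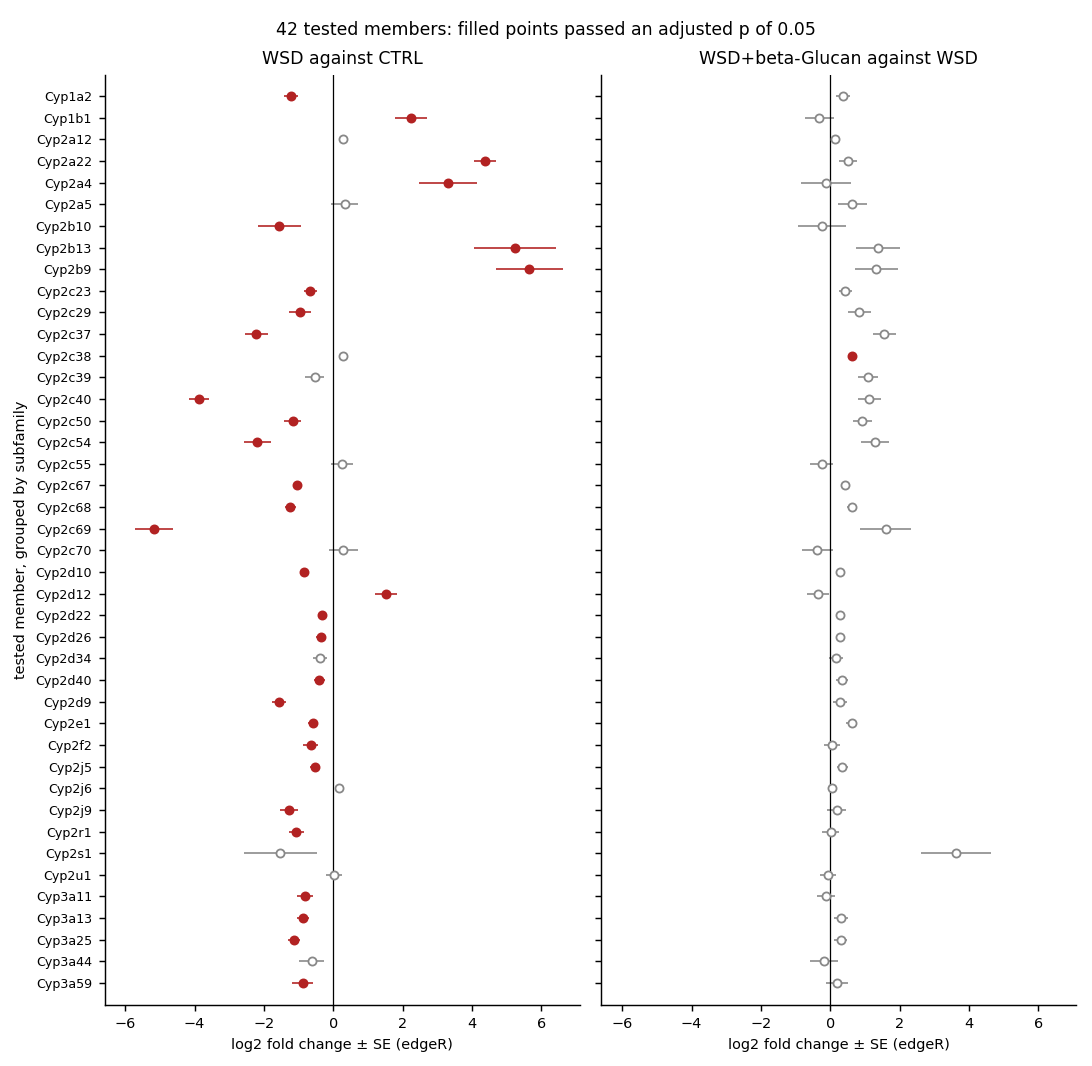
Log2 fold change ± SE (horizontal axis) of the 42 tested members (rows, grouped by subfamily) in WSD against CTRL (left) and in WSD+beta-Glucan against WSD (right), from edgeR; filled points passed an adjusted p of 0.05. On the left 25 filled points lie below 0 and 6 above it, and on the right Cyp2c38 is filled and 33 of 42 points lie above 0. The WSD libraries enter both panels, with opposite sign, and the CTRL value of Cyp2b13 rests on 1 read.

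Summed over the family, members were at 14800 ± 2911 CPM in WSD and 24380 ± 2641 CPM in CTRL (SD, n = 5 each), a log2 ratio of -0.72. The 5 WSD libraries lay between 12300 and 19160 CPM and the 5 CTRL libraries between 21010 and 27980 CPM. On this scale the groups did not overlap. The TPM sums stood closer together, at 12480 TPM in WSD and 15050 TPM in CTRL, a log2 ratio of -0.27. In TPM the groups overlapped, with 10520 to 15010 TPM in WSD libraries and 13650 to 17480 TPM in CTRL libraries. Sums by subfamily do not depend on how reads were split between copies of the same subfamily, which matters here because many members are near-identical. The sums can still depend on splits with similar genes that are not members, such as Gm45225 and Cyp2c53-ps. CYP2D summed to 2605 ± 402.9 CPM in WSD and 5124 ± 295.2 CPM in CTRL (SD, n = 5 each), and CYP2C to 1059 ± 308.9 CPM in WSD and 2197 ± 186.2 CPM in CTRL. CYP2A went the other way, at 979.1 ± 230.8 CPM in WSD and 772.2 ± 102.8 CPM in CTRL, with overlapping libraries.

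**Figure D2:**
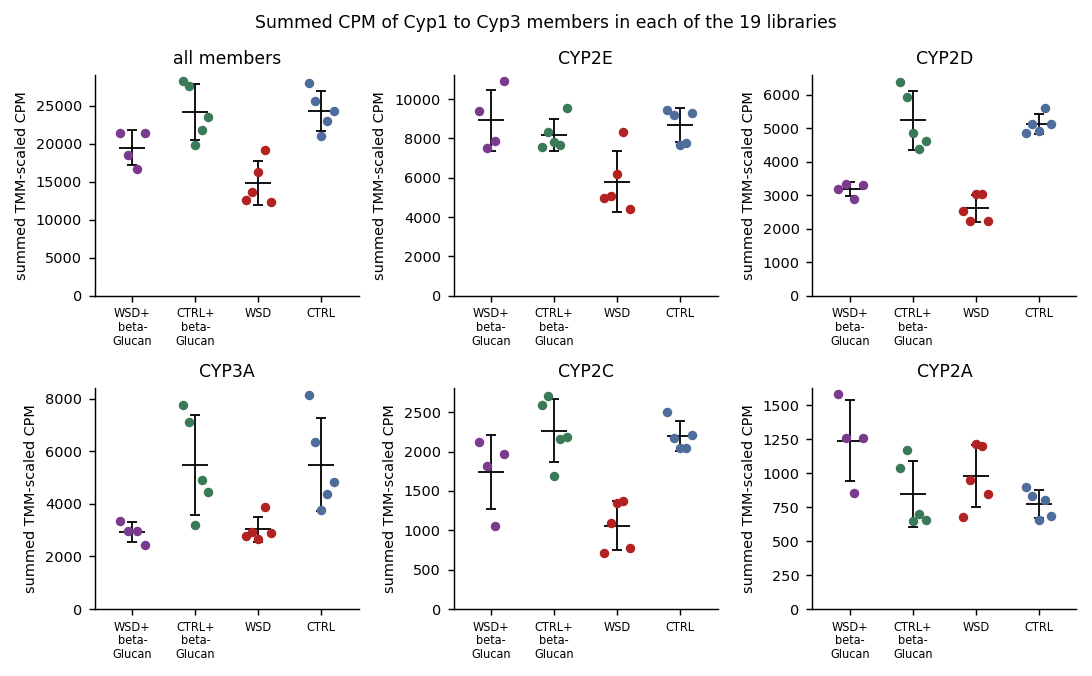
Summed TMM-scaled CPM (vertical axes, from 0) of all 61 members and of the 5 subfamilies with the highest TPM, 1 point per library; bars give the mean ± SD of WSD+beta-Glucan (n = 4), CTRL+beta-Glucan, WSD and CTRL (n = 5 each), from left to right. The WSD libraries lie below the CTRL libraries for all members (12300 to 19160 CPM against 21010 to 27980 CPM), CYP2D and CYP2C, while CYP2E of WSD replicate 4 lies within the CTRL range. The TPM sums of all members, not drawn here, overlap between WSD and CTRL.

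Cyp2e1 (ENSMUSG00000025479) was at 4950, 5050, 6190, 8320 and 4430 CPM in WSD libraries 1 to 5, against 9460, 9210, 7650, 7780 and 9270 CPM in CTRL libraries 1 to 5. All WSD libraries were below all CTRL libraries except WSD replicate 4, which lay within the CTRL range. The log2 fold change was -0.58 ± 0.15 (SE), with an edgeR adjusted p of 0.0035. With library totals alone the value was -0.13 and no longer passed (adjusted p = 0.402). On the TPM scale the levels were 4736 in WSD and 5159 in CTRL.

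Within a library, the share of one member in the summed TPM of all members does not depend on the scaling of libraries. Cyp2e1 took 37.7 ± 2.85% of the family in WSD and 34.3 ± 1.82% in CTRL (SD, n = 5 each). Cyp2d9 took 6.11 ± 1.33% in WSD and 11 ± 1.74% in CTRL, and Cyp2a12, a member known for bile acid hydroxylation in the mouse, took 4.4 ± 0.495% in WSD and 2.16 ± 0.225% in CTRL. Cyp3a11 held 17.0 ± 2.47% in WSD and 17.5 ± 4.01% in CTRL. No test was run on these shares.

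**Figure D3:**
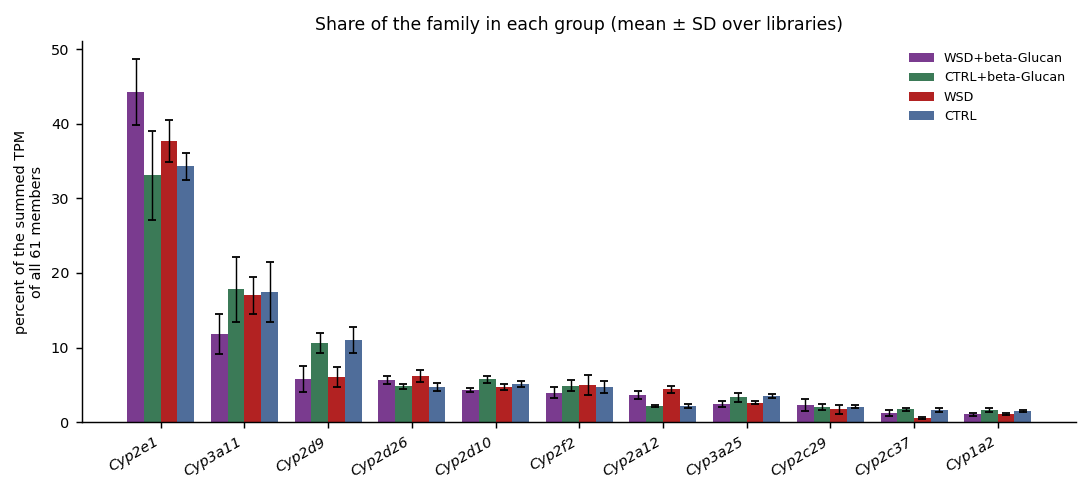
Percent of the summed TPM of all 61 members (vertical axis, from 0) held by 11 members in each group; bars are means and whiskers the SD over libraries of WSD+beta-Glucan (n = 4), CTRL+beta-Glucan, WSD and CTRL (n = 5 each). Cyp2e1 holds 44.3% with WSD+beta-Glucan, 33.1% with CTRL+beta-Glucan, 37.7% with WSD and 34.3% with CTRL, and Cyp2d9 5.75%, 10.6%, 6.11% and 11% in the same order.

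The CYP2D genes lie next to each other on chromosome 15, and 5 of 7 tested fell, 1 rose and Cyp2d34 did not pass. Cyp2d9 (ENSMUSG00000068086) had 916, 566, 1060, 1160 and 592 CPM in WSD, against 2250, 2420, 2470, 2910 and 2790 CPM in CTRL. Every WSD library was below every CTRL library, with a log2 fold change of -1.58 ± 0.20 (edgeR adjusted p = 2.18e-06). Cyp2d10 fell by 0.86 on the log2 scale (SE 0.11), while Cyp2d22, Cyp2d26 and Cyp2d40 fell by 0.32, 0.37 and 0.40. Cyp2d12 rose by 1.51 ± 0.32 but stayed low, with a mean of 1.349 TPM in WSD and 0.3503 TPM in CTRL.

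In CYP3A, 4 of 5 tested members fell and Cyp3a44 did not pass. Cyp3a11 (ENSMUSG00000056035) was at 2430, 2470, 2150, 3310 and 2460 CPM in WSD, against 6970, 5290, 2940, 3570 and 3820 CPM in CTRL. WSD replicate 4 was above CTRL replicate 3, so that the groups overlapped, and CTRL replicates 1 and 2 stood above the rest. The log2 fold change was -0.82 ± 0.24 (edgeR adjusted p = 0.00779), and -0.36 with library totals alone (adjusted p = 0.173). Cyp3a25 fell by 1.14 (SE 0.18), Cyp3a13 by 0.87 (SE 0.18) and Cyp3a59 by 0.88 (SE 0.30). Cyp3a25 and Cyp3a59 share 41.2% of the 31-base words of Cyp3a25, so the split of reads between them is uncertain.

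Of family 1, Cyp1a2 (ENSMUSG00000032310), which metabolizes caffeine and aromatic amines, had 144, 169, 207, 198 and 117 CPM in WSD, against 454, 341, 340, 442 and 369 CPM in CTRL. No WSD library reached the lowest CTRL library, and the log2 fold change was -1.22 ± 0.19 (edgeR adjusted p = 2.51e-05). Cyp1b1 (ENSMUSG00000024087), an enzyme of oestrogen hydroxylation that is low in hepatocytes, had 1.43, 1.94, 1.21, 1.33 and 4.2 CPM in WSD, against 0.506, 0.488, 0.292, 0.237 and 0.567 CPM in CTRL. All WSD libraries were above all CTRL libraries, with WSD replicate 5 highest, and the log2 fold change was 2.25 ± 0.46 (adjusted p = 0.000371). The summed stellate cell markers (410 to 785 CPM in WSD, 83.8 to 205 CPM in CTRL) and macrophage markers moved in the same direction as Cyp1b1, and their part in its rise was not tested.

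CYP2C was the subfamily with the most members that fell. Of 13 tested, 9 fell, none rose and 4 did not pass (Cyp2c38, Cyp2c39, Cyp2c55 and Cyp2c70). These genes form a cluster on chromosome 19 and include epoxygenases of arachidonic acid (Cyp2c29, Cyp2c37, Cyp2c50 and Cyp2c54). Cyp2c37 (ENSMUSG00000042248) had 40.8, 69.7, 104, 113 and 38.4 CPM in WSD, against 433, 433, 256, 247 and 337 CPM in CTRL. The groups did not overlap, and the log2 fold change was -2.22 ± 0.33 (edgeR adjusted p = 3.05e-05).

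Cyp2c70, which makes the muricholic acids of mouse bile, had 112 to 189 CPM in WSD, against 82.4 to 130 CPM in CTRL, and did not pass (log2 difference 0.29, edgeR adjusted p = 0.572). Cyp2c54 fell by 2.19 on the log2 scale (SE 0.39) and Cyp2c50 by 1.17 (SE 0.25). Cyp2c29 (ENSMUSG00000003053), the CYP2C member with the highest TPM, had 101, 256, 338, 285 and 131 CPM in WSD, against 513, 429, 413, 453 and 375 CPM in CTRL. All WSD libraries were below the CTRL libraries, with a log2 fold change of -0.97 ± 0.32 (adjusted p = 0.0156), which did not pass with library totals alone (adjusted p = 0.133). WSD replicates 1 and 5 were the lowest of their group for Cyp2c29, Cyp2c37 and Cyp2c50. Both were also the lowest for Cyp2e1.

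The largest falls of all members were those of Cyp2c69 and Cyp2c40, which lie side by side and are described as female-biased in mouse liver. Cyp2c40 (ENSMUSG00000025004), an arachidonic acid hydroxylase, was at 0.764, 0.519, 0.871, 0.786 and 0.332 CPM in WSD, against 8.64, 5.89, 12.4, 7.31 and 13.9 CPM in CTRL. Its log2 fold change was -3.88 ± 0.29 (edgeR adjusted p = 3.94e-09). Cyp2c69 (ENSMUSG00000092008) was at 0.124, 0.176, 0.152, 0 and 0 CPM in WSD, against 3.42, 1.81, 6.08, 2.18 and 4.76 CPM in CTRL. Only 10 reads lay behind the WSD value, and the log2 fold change was -5.17 ± 0.55. For both genes every WSD library was below every CTRL library. Cyp2c40 shares 72.6% of its 31-base words with other genes, 46.6% with Cyp2c69. The far more abundant Cyp2c67 and Cyp2c68 (means of 116.4 and 70.81 CPM in WSD) share 55.5% and 53.6% of their words with Cyp2c40. They fell by 1.04 (SE 0.12) and 1.24 (SE 0.15). The division of reads among these genes is uncertain, and so is the size of the falls of Cyp2c40 and Cyp2c69.

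The start regions of this pair are shown because the 2 genes moved together. Each window is from RefSeq on GRCm38.p6 and runs from 250 bases before to 50 bases after the annotated start, read 5′ to 3′ along the gene. Capitals mark the letters of an HNF1 half-site (GTTAAT, here as its reverse complement ATTAAC) and of a C/EBP-type site (TTGCNNAA).
Cyp2c40, chr19:39812765-39813064, minus strand: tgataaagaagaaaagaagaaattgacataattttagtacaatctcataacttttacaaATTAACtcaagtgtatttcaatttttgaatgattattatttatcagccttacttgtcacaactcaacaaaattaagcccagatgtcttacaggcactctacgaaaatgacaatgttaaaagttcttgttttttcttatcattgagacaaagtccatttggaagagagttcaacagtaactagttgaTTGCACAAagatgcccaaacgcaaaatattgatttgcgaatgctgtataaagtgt
Cyp2c69, chr19:39886720-39887019, minus strand: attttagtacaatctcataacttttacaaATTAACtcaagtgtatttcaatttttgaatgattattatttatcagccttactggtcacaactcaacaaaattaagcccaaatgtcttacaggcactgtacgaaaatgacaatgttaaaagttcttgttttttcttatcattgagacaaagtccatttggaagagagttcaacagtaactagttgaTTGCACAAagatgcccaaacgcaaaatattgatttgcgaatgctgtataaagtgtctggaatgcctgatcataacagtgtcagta
An alignment of both windows gave 267 identical bases, 3 mismatches and 60 gap bases, an identity of 80.9%. The gap bases lie at the window ends, because the annotated starts are offset. The stretch that both windows share differs at the 3 mismatches only. The HNF1 letters begin at position -191 in Cyp2c40 and -221 in Cyp2c69, and the C/EBP letters at -5 and -35. These are the same letters of the shared stretch, numbered from offset starts. The Cyp2c69 window is also 91.1% identical to that of Cyp2c68, whose log2 fold change was -1.24. On either strand the HNF1 letters occur in 7.1% of all 32851 windows of this length and in 11.3% of the 53 member windows, and the C/EBP letters in 10.8% of all windows and 26.4% of the member windows. These are letter matches, not binding sites.

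**Figure D4:**
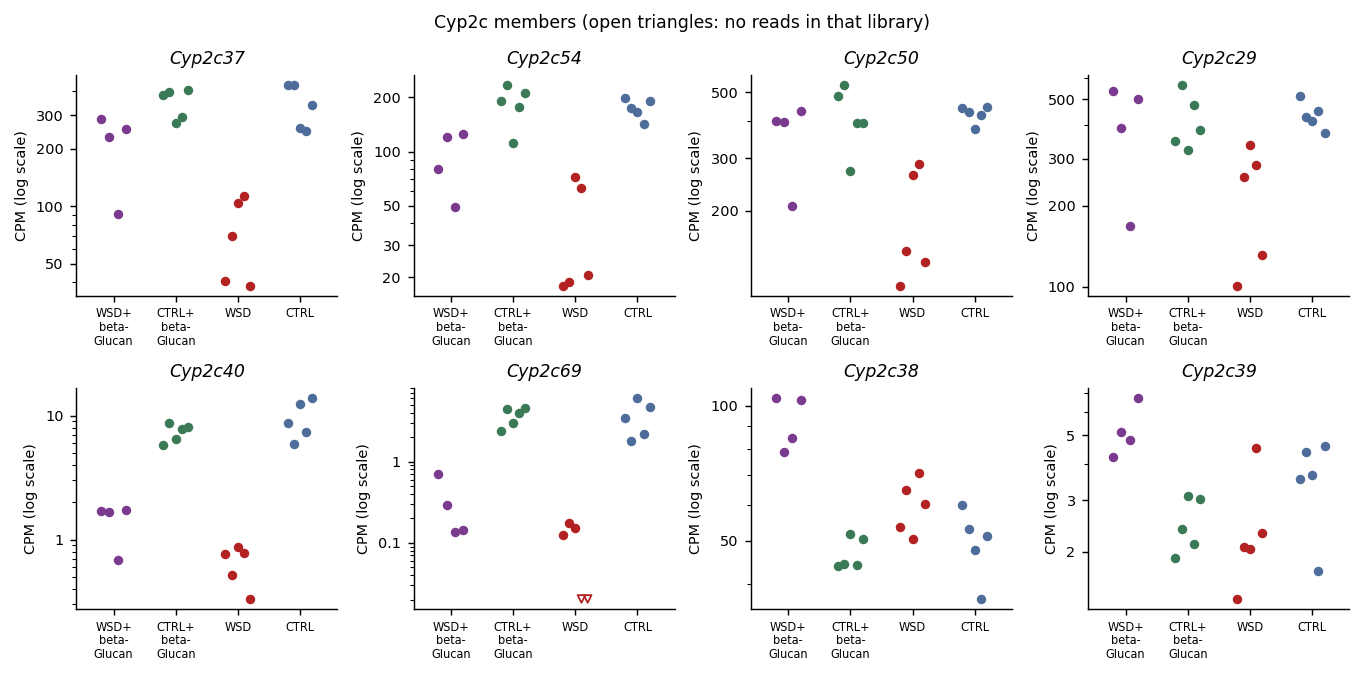
CPM (vertical axes, log scale, different for each panel) of 8 Cyp2c members in every library of WSD+beta-Glucan (n = 4), CTRL+beta-Glucan, WSD and CTRL (n = 5 each), from left to right; open triangles at the lower edge mark libraries without a read. Cyp2c37, Cyp2c54, Cyp2c50, Cyp2c29, Cyp2c40 and Cyp2c69 are lower in all WSD libraries than in all CTRL libraries, and Cyp2c38 is highest in WSD+beta-Glucan (78.7 to 104 CPM, against 50.5 to 70.7 CPM in WSD).

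CYP2A and CYP2B, neighbours on chromosome 7, held 4 of the 6 members that rose. Cyp2a22 (ENSMUSG00000091867) was at 19.4, 28.7, 32.8, 27 and 33.2 CPM in WSD, against 1.48, 1.52, 2.08, 0.922 and 0.79 CPM in CTRL. The lowest WSD library was far above the highest CTRL library, and the log2 fold change was 4.38 ± 0.32 (edgeR adjusted p = 7.68e-09). Its closest relative is Cyp2a12 (ENSMUSG00000060407), with which it shares 34.6% of its 31-base words. Cyp2a12 had 504, 616, 742, 680 and 588 CPM in WSD, against 514, 507, 501, 555 and 503 CPM in CTRL, a log2 difference of 0.28 ± 0.13 that did not pass (adjusted p = 0.0779). Cyp2a4, a female-biased steroid 15-alpha-hydroxylase, rose by 3.31 ± 0.84 (adjusted p = 0.00312), and Cyp2a5, the coumarin 7-hydroxylase, differed by 0.33 ± 0.39 and did not pass (adjusted p = 0.503). Of the 31-base words of Cyp2a4, 55.9% are shared with the far more abundant Cyp2a5, which makes the level of Cyp2a4 uncertain.

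Cyp2b9 (ENSMUSG00000040660), a female-biased enzyme that is nearly silent in adult male mouse liver, had 7.19, 22.8, 8.82, 9.2 and 5 CPM in WSD, against 0.394, 0.244, 0.292, 0.118 and 0 CPM in CTRL. The WSD libraries together held 1236 reads and the CTRL libraries 18, a ratio of 52.1 after scaling (exact 95% interval 32.8 to 88.3, counting error only). The groups were far apart, and the log2 fold change was 5.65 ± 0.96 (edgeR adjusted p = 0.000121). Cyp2b13 (ENSMUSG00000040583), its near copy, had 0.42, 0.958, 0.745, 0.464 and 0.748 CPM in WSD and 0, 0, 0, 0.0591 and 0 CPM in CTRL. With 78 reads in WSD and 1 read in CTRL, the ratio was 59.2, with an exact 95% interval of 10.3 to 2370, and the adjusted p was 0.000959. Of the 31-base words of Cyp2b13, 40.8% are shared with other genes, and Cyp2b9 shares 19.6% of its words with Cyp2b13. The split of reads between this pair is therefore uncertain.

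Cyp2b10 (ENSMUSG00000030483), the gene by which CAR activation is usually read in mouse liver, did not share this rise. It was at 0.277, 4.54, 2.51, 2.24 and 1.98 CPM in WSD, against 9.11, 10.4, 3.15, 0.769 and 11 CPM in CTRL. CTRL replicate 4 lay below 4 of the 5 WSD libraries, so the groups overlapped. The log2 fold change was -1.56 ± 0.62, with an adjusted p of 0.0415 that was lost in 15 of 29 other settings (range 0.00872 to 0.136).

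The start regions of these 3 neighbours are shown because Cyp2b9 and Cyp2b13 rose and Cyp2b10 did not. Capitals mark the C/EBP-type letters (TTGCNNAA), a nuclear receptor half-site (AGGTCA) and the core of an Ahr site (GCGTG, or CACGC on the other strand).
Cyp2b9, chr7:26173159-26173458, plus strand: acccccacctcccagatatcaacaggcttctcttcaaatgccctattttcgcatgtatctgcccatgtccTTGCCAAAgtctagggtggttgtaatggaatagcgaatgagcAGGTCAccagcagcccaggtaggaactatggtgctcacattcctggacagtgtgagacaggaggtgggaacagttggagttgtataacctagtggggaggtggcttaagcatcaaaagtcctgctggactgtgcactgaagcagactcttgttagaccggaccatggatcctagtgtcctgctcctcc
Cyp2b13, chr7:26061245-26061544, plus strand: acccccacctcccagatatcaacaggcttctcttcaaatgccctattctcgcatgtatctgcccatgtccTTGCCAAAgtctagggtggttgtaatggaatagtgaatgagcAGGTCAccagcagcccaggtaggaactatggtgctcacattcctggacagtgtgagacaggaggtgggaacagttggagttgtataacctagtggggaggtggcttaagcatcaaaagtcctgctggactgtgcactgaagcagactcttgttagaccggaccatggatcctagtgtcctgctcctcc
Cyp2b10, chr7:25897408-25897707, plus strand: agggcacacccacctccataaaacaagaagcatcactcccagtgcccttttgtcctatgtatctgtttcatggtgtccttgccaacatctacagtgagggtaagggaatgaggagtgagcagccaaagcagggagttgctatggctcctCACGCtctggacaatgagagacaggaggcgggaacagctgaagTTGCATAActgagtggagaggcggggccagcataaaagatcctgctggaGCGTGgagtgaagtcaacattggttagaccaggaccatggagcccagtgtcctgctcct
The Cyp2b9 and Cyp2b13 windows are identical at 298 of 300 bases (99.3%), and each is 71.7% identical to the Cyp2b10 window. Both hold the C/EBP letters at position -180 and the half-site at -138, neither of which is at that place in Cyp2b10, which has the C/EBP letters at -58 and the Ahr letters at -101 and -9. The half-site letters occur in 16.3% of all windows and 34.0% of member windows, and the Ahr letters in 32.4% of all windows and 18.9% of member windows.

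**Figure D5:**
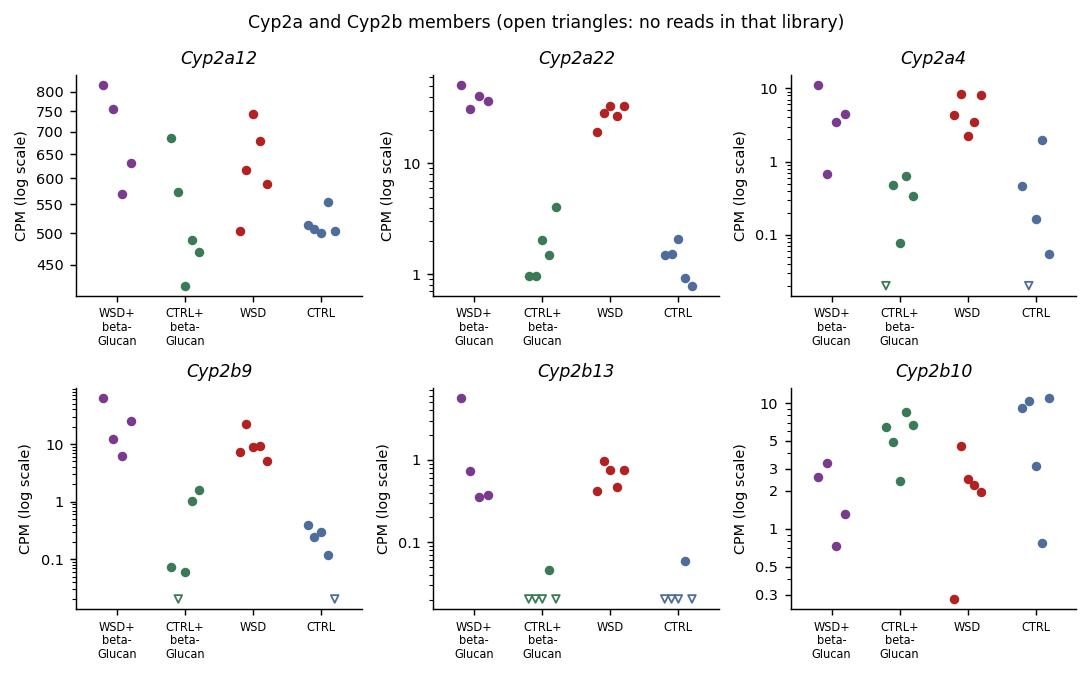
CPM (vertical axes, log scale, different for each panel) of 3 Cyp2a and 3 Cyp2b members in every library of WSD+beta-Glucan (n = 4), CTRL+beta-Glucan, WSD and CTRL (n = 5 each), from left to right; open triangles at the lower edge mark libraries without a read. Cyp2a22, Cyp2b9 and Cyp2b13 are higher in every library of both WSD groups than in every library of both CTRL groups, while Cyp2b10 does not share this pattern.

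Of the remaining subfamilies, Cyp2f2 (ENSMUSG00000052974), a periportal enzyme that activates naphthalene, had 487, 781, 1270, 773 and 694 CPM in WSD, against 1180, 1130, 1210, 1490 and 1290 CPM in CTRL. WSD replicate 3 lay within the CTRL range. The log2 fold change was -0.65 ± 0.22 (edgeR adjusted p = 0.0174), which did not pass with library totals alone (adjusted p = 0.36). Cyp2r1 (ENSMUSG00000030670), a 25-hydroxylase of vitamin D, had 1.94, 2.23, 2.03, 2.7 and 2.2 CPM in WSD, against 6.52, 5.03, 3.88, 3.19 and 4.69 CPM in CTRL. It was lower in all WSD libraries, with a log2 fold change of -1.07 ± 0.22 (adjusted p = 0.000513).

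Cyp2j5 (ENSMUSG00000052520), an arachidonic acid epoxygenase, had 208, 298, 296, 279 and 215 CPM in WSD, against 384, 392, 350, 338 and 402 CPM in CTRL. The groups did not overlap, and it fell by 0.53 (SE 0.14; edgeR adjusted p = 0.00338). The call was lost with library totals alone, where the value was -0.06. Cyp2j9 (ENSMUSG00000015224) had 5.85, 5.28, 3.94, 5.59 and 3.42 CPM in WSD, against 13.3, 14.6, 8.34, 10.7 and 11.3 CPM in CTRL, and fell by 1.28 (SE 0.25) without overlap.

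Cyp2u1 (ENSMUSG00000027983), a fatty acid hydroxylase, had 20.5, 18.7, 40.4, 20.6 and 13.3 CPM in WSD, against 18, 25.4, 20.2, 26.6 and 21.6 CPM in CTRL, a log2 difference of 0.02 ± 0.22 that did not pass. WSD replicate 3 stood above the rest. Cyp2s1 (ENSMUSG00000040703), an enzyme of epithelia outside the liver, stayed below 1 CPM in WSD (0.369, 0.165, 0.216, 0.275 and 0.488 CPM) and in CTRL (0.45, 0.305, 0.35, 2.78 and 0.567 CPM), except for CTRL replicate 4. Its log2 difference of -1.53 ± 1.05 did not pass (edgeR adjusted p = 0.233).

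The second comparison asked what beta-glucan did on top of WSD. Cyp2c38 was the only member of 42 that passed, and it rose, where 0.0883% of all genes rose and 0.302% fell. Most members nevertheless leaned upward: the log2 difference was positive for 33 of 42 (78.6%, against 52.4% of all genes), with a median of 0.31, against 0.01 over all genes. This lean was not particular to the members. The difference was also positive for 18 of 19 hepatocyte markers (median 0.23), 27 of 29 phase I enzymes outside the P450s and 37 of 45 conjugating enzymes. It was positive for 7 of 22 acute phase genes and 2 of 16 macrophage markers. At an unadjusted p under 0.05, 19 members were higher and 0 lower, where 7.69% of all genes were higher and 7.89% lower. Without the 3 libraries that stood apart, 30 of the same 42 members were positive, with 13 higher and 1 lower at that unadjusted level. Summed hepatocyte markers were at 101000 to 137000 CPM in WSD+beta-Glucan and 87200 to 105000 CPM in WSD, and summed macrophage markers at 500 to 597 CPM in WSD+beta-Glucan and 811 to 1050 CPM in WSD. Their part in these differences was not tested.

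Cyp2c38 (ENSMUSG00000032808), a female-biased arachidonic acid epoxygenase, had 104, 78.7, 84.5 and 103 CPM in WSD+beta-Glucan, against 53.6, 64.9, 50.5, 70.7 and 60.5 CPM in WSD. All 4 libraries of WSD+beta-Glucan were above all 5 of WSD. The log2 fold change was 0.62 ± 0.12 (edgeR adjusted p = 0.0289). Its levels were 44, 44.4, 51.8, 44.2 and 50.4 CPM in CTRL+beta-Glucan and 60.2, 53, 47.7, 37.1 and 51.2 CPM in CTRL, so that it stood highest in WSD+beta-Glucan. The call is fragile: it was lost in 9 of 29 other settings (adjusted p 0.00173 to 0.16), among them the fit without the 3 libraries that stood apart, the fit with library totals alone, and the leaving out of any of WSD+beta-Glucan replicates 1, 2 and 4 or WSD replicates 1, 2, 3 and 5.

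The start region of Cyp2c38 is shown as that of the member that passed with beta-glucan. None of the 5 letter patterns searched (the STAT and BCL6 letters TTCNNNGAA were the fifth, found in 8.3% of all windows) lies in it, so it has no capitals.
Cyp2c38, chr19:39463026-39463325, minus strand: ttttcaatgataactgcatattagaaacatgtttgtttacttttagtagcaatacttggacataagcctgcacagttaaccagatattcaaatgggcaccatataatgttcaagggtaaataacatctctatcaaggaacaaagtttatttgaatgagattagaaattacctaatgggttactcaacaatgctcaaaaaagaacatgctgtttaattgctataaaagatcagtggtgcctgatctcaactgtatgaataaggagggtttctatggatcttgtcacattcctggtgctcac
It is 78.1% identical to the window of its neighbour Cyp2c39, a retinoic acid hydroxylase in the mouse. Cyp2c39 was at 4.21, 5.14, 4.83 and 6.71 CPM in WSD+beta-Glucan, against 1.38, 2.07, 2.04, 4.51 and 2.32 CPM in WSD. WSD replicate 4 lay among the libraries of WSD+beta-Glucan, and the log2 difference of 1.09 ± 0.28 did not pass (edgeR adjusted p = 0.0871).

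Of the 13 tested CYP2C members, 11 had a positive log2 difference between WSD+beta-Glucan and WSD, with a median of 0.84, although Cyp2c38 alone passed. Cyp2c37 had 285, 231, 91.2 and 253 CPM in WSD+beta-Glucan, against 40.8, 69.7, 104, 113 and 38.4 CPM in WSD. WSD+beta-Glucan replicate 3 lay within the WSD range and the other 3 above it, and the log2 difference was 1.56 ± 0.34 (edgeR adjusted p = 0.0603, just outside the threshold). DESeq2 called 7 members higher (Cyp2c37, Cyp2c38, Cyp2c39, Cyp2c40, Cyp2c50, Cyp2c68 and Cyp2e1) and 0 lower, where it called 91 genes higher and 327 lower of 21991. limma-voom called 5 members higher and 0 lower, where it called 53 genes higher and 353 lower of 13594. edgeR without WSD replicate 4 also called 5 members higher, where it called 31 genes higher and 44 lower of 13556.

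Cyp2c40 had 1.7, 1.66, 0.681 and 1.72 CPM in WSD+beta-Glucan, against 0.332 to 0.871 CPM in WSD, a log2 difference of 1.13 ± 0.33 (edgeR adjusted p = 0.114). Cyp2c29 had 536, 390, 168 and 502 CPM in WSD+beta-Glucan, against 101 to 338 CPM in WSD, a log2 difference of 0.84 ± 0.33 (adjusted p = 0.235). WSD+beta-Glucan replicate 3 was the lowest of its group for Cyp2c29, Cyp2c37, Cyp2c40, Cyp2c50 and Cyp2c54. Cyp2c69 had 26 reads in WSD+beta-Glucan and 10 in WSD, a ratio of 3.39 after scaling (exact 95% interval 1.58 to 7.87, counting error only).

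Cyp2e1 had 9400, 7490, 7850 and 10900 CPM in WSD+beta-Glucan, against 4950, 5050, 6190, 8320 and 4430 CPM in WSD. Only WSD replicate 4 lay within the range of WSD+beta-Glucan, and the log2 difference of 0.62 ± 0.16 did not pass (edgeR adjusted p = 0.0871). The summed family stood at 19510 ± 2335 CPM in WSD+beta-Glucan (SD, n = 4) and 14800 ± 2911 CPM in WSD (SD, n = 5), with overlapping libraries, and a log2 ratio of 0.40. Of the members outside CYP2C, none passed. Cyp2s1 differed by 3.64 ± 1.01 (edgeR adjusted p = 0.108), with 13.7 CPM in WSD+beta-Glucan replicate 2 and 0.713 CPM or less in the other 3, and Cyp2a5 by 0.64 ± 0.41. Cyp3a11 differed by -0.12 ± 0.25, Cyp2d9 by 0.28 ± 0.21, Cyp2f2 by 0.06 ± 0.23, Cyp2r1 by 0.01 ± 0.24 and Cyp2a22 by 0.50 ± 0.26 on the log2 scale.

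Cyp2b9 had 63.6, 12.2, 6.23 and 25 CPM in WSD+beta-Glucan, against 5 to 22.8 CPM in WSD, a log2 difference of 1.33 ± 0.62 that did not pass (edgeR adjusted p = 0.312). WSD+beta-Glucan replicate 1 was the highest library for Cyp2b9, for Cyp2b13 (5.66 CPM, the other 3 between 0.353 and 0.738) and for Cyp2a22 (51.4 CPM, the others between 31.1 and 40.7). It is one of the 3 libraries that stood apart. The log2 ratio of the CYP2B sums was 1.17 with that library and 0.30 without it.

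The third comparison asked what beta-glucan did without WSD, and no member passed. In CTRL+beta-Glucan against CTRL 0 of 42 members were higher and 0 lower with edgeR, with DESeq2 and with limma-voom, where 0.00736% of all genes rose and 0.0% fell. At an unadjusted p under 0.05 there were also 0 in each direction, where 2.86% of all genes were higher and 2.84% lower. The smallest adjusted p was 0.854, for Cyp2c39, at 1.9, 2.4, 3.09, 2.13 and 3.02 CPM in CTRL+beta-Glucan, against 3.55, 4.4, 3.65, 1.72 and 4.59 CPM in CTRL. The median log2 difference of the members was 0.01, against 0.0 over all genes, and 23 of 42 were positive. Without the 3 libraries that stood apart, 2 of them from CTRL+beta-Glucan, the median was -0.14, against -0.01 over all genes. There 10 of the 42 were positive, with 1 higher and 3 lower at the unadjusted level. With a term for these libraries the median was -0.12, with 10 positive, 0 higher and 4 lower at that level, and no member passed after adjustment in either fit. Cyp2e1 differed by -0.08 ± 0.15, Cyp2c37 by 0.04 ± 0.32, Cyp2d9 by -0.05 ± 0.19, Cyp3a11 by 0.02 ± 0.24 and Cyp1a2 by 0.13 ± 0.19 on the log2 scale (SE). These errors set how small a change could have been seen.

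Whether beta-glucan acted differently on the 2 diets was tested as an interaction. No member passed (0 higher and 0 lower of 42 with edgeR, where 0.0% of all genes were higher and 0.00736% lower). DESeq2 called 3 higher (Cyp2c38, Cyp2c39 and Cyp2c40) and 0 lower, where it called 14 genes higher and 123 lower of 21991. At an unadjusted p under 0.05, 11 members were higher and 0 lower in edgeR, where 6.9% of all genes were higher and 6.82% lower. The smallest adjusted p was 0.18, for Cyp2c38, with a difference of 0.71 ± 0.17 between its log2 changes. For Cyp2c37 the difference was 1.52 ± 0.47 and for Cyp2e1 0.71 ± 0.22 (adjusted p = 0.222 for both).

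With beta-glucan in both arms, WSD+beta-Glucan against CTRL+beta-Glucan had 10 of 42 members higher and 13 lower, where 19.1% of all genes were higher and 15.2% lower. With library totals alone 12 were higher and 10 lower, where 5137 of 13594 genes were higher and 385 lower. The median of the members was -0.27, against -0.01 over all genes. With library totals it was 0.04, against 0.28 over all genes. Of the hepatocyte markers 9 of 19 were lower and 0 higher, with sums of 101000 to 137000 CPM in WSD+beta-Glucan and 154000 to 216000 CPM in CTRL+beta-Glucan. Of the macrophage markers 13 of 16 were higher and 0 lower (500 to 597 CPM in WSD+beta-Glucan, 63.9 to 256 CPM in CTRL+beta-Glucan), and of the stellate cell markers 8 of 10 were higher and 0 lower (317 to 505 CPM in WSD+beta-Glucan, 79.7 to 203 CPM in CTRL+beta-Glucan). Their part in the members' differences was not tested. Cyp2d9 had 711, 1320, 1020 and 1130 CPM in WSD+beta-Glucan, against 2930, 2950, 2410, 1980 and 2090 CPM in CTRL+beta-Glucan, a log2 fold change of -1.24 ± 0.21 (edgeR adjusted p = 0.00019) without overlap. Cyp1a2 fell by 0.99 (SE 0.20), Cyp2j9 by 1.33 (SE 0.27), Cyp2c40 by 2.35 (SE 0.29) and Cyp2c69 by 3.59 (SE 0.52).

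Cyp2e1, Cyp2c29, Cyp2c37, Cyp2c50 and Cyp2c54 were not called in this comparison. Cyp2e1 had 7490 to 10900 CPM in WSD+beta-Glucan and 7570 to 9540 CPM in CTRL+beta-Glucan, a log2 difference of 0.12 ± 0.16 (edgeR adjusted p = 0.586). With library totals alone Cyp2e1 was called higher. Cyp2c29 differed by -0.07 ± 0.33, Cyp2c50 by -0.20 ± 0.26, Cyp2c37 by -0.70 ± 0.34 and Cyp2c54 by -0.99 ± 0.41, none of which passed. Cyp2c38 rose by 0.98 ± 0.12 (adjusted p = 1e-05), Cyp2c39 by 1.05 ± 0.29 and Cyp2a22 by 4.34 ± 0.31.

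Cyp3a11 had 2590, 2430, 2540 and 1880 CPM in WSD+beta-Glucan, against 6680, 5950, 2570, 4030 and 3690 CPM in CTRL+beta-Glucan, a log2 fold change of -0.96 ± 0.26 (edgeR adjusted p = 0.00779). CTRL+beta-Glucan replicates 1 and 2, both among the libraries that stood apart, were the highest of that group, and without the 3 libraries the value was -0.58 and no longer passed (adjusted p = 0.127). The falls of Cyp2f2 (-0.65 ± 0.23, adjusted p = 0.0373) and Cyp2r1 (-0.76 ± 0.24, adjusted p = 0.0208) were also lost without them. Cyp2a12 was higher by 0.40 ± 0.14 (adjusted p = 0.0315), a call lost in 6 of 29 other settings.

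Cyp2s1 passed here with a log2 fold change of 3.59 ± 1.04 (edgeR adjusted p = 0.0132), and the value rests on 1 library. It had 0.713, 13.7, 0.389 and 0.463 CPM in WSD+beta-Glucan, against 0.0722, 0.496, 0.36, 0.556 and 0.0495 CPM in CTRL+beta-Glucan. Without WSD+beta-Glucan replicate 2 the log2 difference was 0.71 and did not pass, nor did the value pass with limma-voom. In that library the intestinal marker Vil1 stood at 4.03 CPM, the others of its group between 0.22 and 1.21, and the untested member Cyp2c65, an intestinal enzyme, at 3.05 CPM, the others at 0.0549 or less. Vil1 is 1 of 3 tested genes of the list of intestine, kidney and lung markers, and was picked after its value was seen. The summed list lay between 184 and 233 CPM in the WSD+beta-Glucan libraries. CTRL replicate 4, the other library with a high Cyp2s1 (2.78 CPM), had 0.71 CPM of Cyp2c65. Its 1.12 CPM of Vil1 lay within the range of the WSD+beta-Glucan libraries with low Cyp2s1. The part of intestinal RNA in the Cyp2s1 value was not tested.

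Against plain CTRL, livers of WSD+beta-Glucan had 8 members higher and 13 lower, where 20.8% of all genes were higher and 17.5% lower, 38.3% in all. With library totals alone 13 members were higher and 10 lower, where 5442 genes were higher and 423 lower. Of the hepatocyte markers 10 of 19 were lower and 0 higher, and of the macrophage markers 14 of 16 were higher and 0 lower, and their part was not tested. Cyp2a22 had 51.4, 31.1, 40.7 and 36.4 CPM in WSD+beta-Glucan, against 0.79 to 2.08 CPM in CTRL, a log2 fold change of 4.88 ± 0.33 (edgeR adjusted p = 1.46e-08). Cyp2d9 fell by 1.30 (SE 0.21) and Cyp1a2 by 0.86 (SE 0.20), whereas Cyp2c29 (-0.13 ± 0.33) and Cyp2e1 (0.04 ± 0.16) did not pass. The comparisons given here share libraries, so their values stand side by side and are no independent repeats.

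Grouped by what is known of their control, members did not move as 1 block in WSD against CTRL. Of 12 members known to respond to CAR or PXR, 7 fell and 3 rose, with a median of -0.85. Of 8 pericentral members, 7 fell and 0 rose, with a median of -1.07, and the exception was Cyp2a5. The periportal Cyp2f2 also fell. Of 9 tested female-biased members, 3 rose (Cyp2a4, Cyp2b9 and Cyp2b13) and 3 fell (Cyp2b10, Cyp2c40 and Cyp2c69), with a median of -0.54. Of the male-biased pair, Cyp2d9 fell and Cyp2u1 did not pass. These shares compare with 26.0% higher and 27.1% lower of all genes.

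Other genes of the pathway give the setting. Por, the reductase on which all these enzymes depend for electrons, had 148, 187, 265, 369 and 222 CPM in WSD, against 575, 527, 720, 576 and 749 CPM in CTRL, a log2 fold change of -1.40 ± 0.22 (edgeR adjusted p = 2.97e-05) without overlap. Of 18 genes of electron supply and haem synthesis or breakdown, 6 fell and 5 rose, with a median of -0.16. Over all genes 27.1% were lower and 26.0% higher, with a median of -0.04. Pgrmc2, a membrane protein that carries haem, fell by 0.46 (SE 0.07), while Hmox1, the haem-degrading oxygenase, rose by 2.02 ± 0.27 and Blvra, which reduces the bile pigment that oxygenase yields, by 0.55 ± 0.09. In WSD+beta-Glucan against WSD none of the 18 passed, with a median of 0.15, and Por differed by 0.56 ± 0.23 (adjusted p = 0.242).

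Of 28 tested regulators, 13 fell and 2 rose in WSD against CTRL, with a median of -0.30, where 27.1% of all genes were lower and 26.0% higher. Nr1i3, which encodes CAR, had 140, 175, 205, 222 and 145 CPM in WSD, against 326, 275, 365, 356 and 300 CPM in CTRL, a log2 fold change of -0.87 ± 0.13 (edgeR adjusted p = 1.28e-05). Nr1i2, which encodes PXR, fell by 0.37 (SE 0.14; adjusted p = 0.0318), and Ahr differed by -0.03 ± 0.19 and did not pass. Rxra, the partner receptor of CAR and PXR, fell by 0.63 (SE 0.10), and Nfe2l2, the regulator of antioxidant genes, rose by 0.81 ± 0.10 and Stat5a, a mediator of growth hormone and prolactin signals, by 0.85 ± 0.13. In WSD+beta-Glucan against WSD, Nr1i3 was the only regulator that passed, at 341, 245, 246 and 308 CPM in WSD+beta-Glucan, above all 5 WSD libraries, with a log2 fold change of 0.68 ± 0.13 (adjusted p = 0.0276). This call is fragile. With WSD replicate 1, 2 or 5 or WSD+beta-Glucan replicate 1, 2 or 4 left out, edgeR called 0 genes higher. The call of Nr1i3 was therefore lost in each of those fits.

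Of 29 phase I enzymes outside the P450s, 9 fell and 5 rose in WSD against CTRL, with a median of -0.24. The counts of this list and of the next 2 stand beside 27.1% lower and 26.0% higher of all genes. Ces2a, a carboxylesterase, fell by 1.94 (SE 0.18) and Ephx2, the soluble epoxide hydrolase that opens the epoxides made by CYP2C and CYP2J enzymes, fell by 1.04 (SE 0.12). Fmo5, a flavin monooxygenase, rose by 0.77 ± 0.13 and Nqo1, a quinone reductase, by 0.51 ± 0.13. Of 45 conjugating enzymes, 17 fell and 9 rose, with a median of -0.18. Gsta1 and Gstm3, both glutathione transferases, rose by 4.12 ± 0.38 and 3.38 ± 0.32, while Ugt2a3 and Ugt2b5, both glucuronosyltransferases, fell by 1.27 (SE 0.15) and 1.01 (SE 0.14). Of 18 drug transporters, 6 fell and 1 rose, with a median of -0.12. Slco1a1, an uptake transporter of organic anions, fell by 3.52 (SE 0.57) and Abcb1a, a P-glycoprotein, rose by 2.09 ± 0.27. In WSD+beta-Glucan against WSD none of these 3 lists had a gene past the threshold, and their medians were 0.22, 0.22 and 0.19.

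Of 20 other male-biased liver genes, 17 fell and 0 rose in WSD against CTRL, with a median of -1.98. Serpina3k, a serpin, fell by 1.92 (SE 0.20) and Elovl3, a fatty acid elongase, fell by 2.76 (SE 0.27). Of 14 tested other female-biased genes, 6 fell and 2 rose, with a median of -0.66. In WSD+beta-Glucan against WSD, Prlr, the prolactin receptor and one of these female-biased genes, rose by 1.14 ± 0.24 (edgeR adjusted p = 0.0476). Like that of Nr1i3, the call of Prlr was lost without WSD replicate 1, 2 or 5 or WSD+beta-Glucan replicate 1, 2 or 4. Of 23 other pericentral genes, 8 fell and 6 rose in WSD against CTRL, with a median of -0.01, while 7 of the 8 pericentral P450s had fallen. In that comparison 27.1% of all genes were lower and 26.0% higher. Avpr1a, a vasopressin receptor, fell by 2.13 (SE 0.18) and Slc1a4, an amino acid transporter, rose by 1.88 ± 0.18.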

How the data were processed

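The 19 stranded mRNA libraries from liver (TruSeq, per the labels' protocols) were quantified with Salmon 1.10.1 on GRCm39, per the submitters' processing notes, which also name DESeq2 1.38.3. Read alignment options and the transcript set are not given in the sources used here. The deposited files give estimated counts per transcript, TPM (scaled within a library by effective length) and, as another unit, the effective length in bases.

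Of 116546 transcripts per file, 115977 (99.51%) matched GENCODE M21, which is on GRCm38 and gave the symbols, and the other 569 were left out. Estimated counts were summed per gene and rounded. Start regions came from the RefSeq table on GRCm38.p6, where 53 of the 61 members matched.

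edgeR 4.0.16 (R 4.3.3) filtered genes by expression over the 4 groups, scaled libraries by TMM and fitted 1 mean per group to all 19 libraries with the quasi-likelihood test. P-values were adjusted by Benjamini-Hochberg over all 13594 genes, with a threshold of 0.05. All adjusted p-values in the text are from this test unless another tool is named. Intervals and the floor of 3 counts cover counting error only, because the same molecule may have been read more than once. DESeq2 1.42.0 and limma 3.58.1 were alternatives, beside other scalings, filters and samples. The method was tested on simulated data with 13339 genes for WSD against CTRL, where 43.3% of changes of 1.5-fold, 85.1% of 2-fold and 93.9% of 4-fold were recovered, with 6 false among 154 calls. The changed genes (67, 67 and 66) were drawn from those with higher counts, with rises and falls balanced. The simulation therefore does not cover members with few reads. Nor does it cover the choice of scaling in a comparison where 53.0% of genes were called.

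Values in every WSD and CTRL library are given for the member with the highest TPM of each tested subfamily, the members with the 3 highest and 3 lowest called fold changes of each comparison, members called with beta-glucan, and Cyp1a2, Cyp2e1, Cyp2b10, Cyp2c29, Cyp2c38, Cyp2d9, Cyp2f2, Cyp2r1 and Cyp3a11. Values in the libraries with beta-glucan are given for only some of these. Cyp2c39, Cyp2c65 and Vil1 were added after their values were seen. The members and gene lists were chosen with earlier results of these data known. Other lists counted in WSD against CTRL were T and NK cell markers (10 higher and 0 lower of 11), B cell (1 and 0 of 5), endothelial (8 and 0 of 10), cholangiocyte (3 and 0 of 8), adipocyte (3 and 0 of 3), intestine, kidney and lung (1 and 1 of 3), pancreas (0 and 1 of 2) and acute phase genes (3 and 7 of 22). Of all genes 26.0% were higher and 27.1% lower there.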

Additional observations from a re-analysis of the deposited data

Results flagged for a closer look

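Of 112 groups of values checked for a library far from the rest of its group, 13 had one. The usual chance rate of about 1 in 20 is no fair yardstick here. Sums repeat the values of their members, and groups with reads in 1 library only are flagged by construction. Cyp1b1 had 4.2 CPM in WSD replicate 5, the others of the group lying between 1.21 and 1.94. Cyp2a12 had 555 CPM in CTRL replicate 4, against 501 to 514 in the others. Cyp2b13 had 5.66 CPM in WSD+beta-Glucan replicate 1, the others between 0.353 and 0.738, and it had reads in 1 library each of CTRL+beta-Glucan (replicate 4, 0.0464 CPM) and CTRL (replicate 4, 0.0591 CPM). Cyp2b9 had 22.8 CPM in WSD replicate 2, the others between 5 and 9.2, which put the CYP2B sum of that library at 28.32 CPM. Cyp2c40 had 0.681 CPM in WSD+beta-Glucan replicate 3, below the 1.66 to 1.72 of the others.

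Cyp2s1 had 13.7 CPM in WSD+beta-Glucan replicate 2, the others between 0.389 and 0.713, and 2.78 CPM in CTRL replicate 4, the others between 0.305 and 0.567. Cyp2u1 had 40.4 CPM in WSD replicate 3, the others between 13.3 and 20.6. Cyp3a11 had 3310 CPM in WSD replicate 4, the others between 2150 and 2470, and the CYP3A sum of that library was 3866 CPM, the others between 2671 and 2942.

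Among the members too low to test, Cyp3a57 had 45 reads over the WSD libraries, against 3 over the CTRL libraries, a ratio of 11.4 after scaling (exact 95% interval 3.66 to 57.3, counting error only).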

How the results depend on the processing

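No called log2 fold change of a member named by the rule changed sign under any alternative run. Some log2 ratios of sums near 0 did change sign: CYP2J in WSD+beta-Glucan against CTRL+beta-Glucan (-0.06, but 0.21 with TPM), CYP2F in WSD+beta-Glucan against WSD (0.06, and -0.07 with TPM or without WSD replicate 1), CYP3A in that comparison (-0.05, and 0.06 without WSD replicate 4), and several sums in CTRL+beta-Glucan against CTRL. With library totals the members' median changed sign when WSD+beta-Glucan was compared with CTRL+beta-Glucan (-0.27, then 0.04) or with CTRL (-0.20, then 0.10), where the median of all genes moved to 0.28 and 0.29. In WSD against CTRL, leaving out 1 library in turn gave 6 to 8 members higher and 22 to 27 lower, and library totals alone gave 10 higher and 14 lower. In WSD+beta-Glucan against WSD, the count of members higher was 7 with DESeq2, 5 with limma-voom, 3 with a term for the 3 libraries that stood apart, 0 without those libraries and 0 to 5 when 1 library was left out, the 5 without WSD replicate 4. With that term 1 member, Cyp2c70, was lower. In WSD+beta-Glucan against CTRL, library totals gave 13 higher. For the interaction DESeq2 called 3 higher. The cause of these differences was not tested. With TPM sums in place of CPM sums, the log2 ratio of WSD to CTRL was -0.27 for all members, -0.74 for CYP1A, 0.81 for CYP2A, -0.50 for CYP2D, -0.12 for CYP2E, 0.00 for CYP2J and -0.41 for CYP3A, and that of WSD+beta-Glucan to CTRL+beta-Glucan was -0.00 for all members, -0.38 for CYP2D, 0.43 for CYP2E and 0.21 for CYP2J. Members with few reads, such as Cyp2b13 and Cyp2c69, are limited by depth. No paired analysis was possible because the replicate numbers only follow the order of the samples and the labels pair no libraries.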
